A study of Mus musculus with 10 samples.

Results

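The lysosome and autophagy genes described here are 30 genes of lysosomal hydrolases, lysosomal membrane proteins, the proton pump and the autophagy machinery. They were taken by gene name from the array annotation, and all 30 were found among the 28192 genes tested. In mouse embryonic stem (ES) cells with 1 extra autosome, 8 of the 11 members that lie on one of the extra chromosomes had their highest level in the line that carries it. The same held for 48.3% of all 4950 tested genes of chromosomes 6, 8 and 11. Becn1 and Sqstm1, both on chromosome 11, were higher in cells trisomic for chromosome 11 than in diploid cells, by 0.70 ± 0.13 and 0.60 ± 0.12 on the log2 scale (SE, 2 arrays against 2). Gabarapl2 was higher by 0.57 ± 0.11 in cells trisomic for chromosome 15, a chromosome it does not lie on. No other member passed the test in any trisomic line against diploid cells. Over all tested genes, 8.13% were called in cells trisomic for chromosome 11 and 7.43% in cells trisomic for chromosome 15. The arrays of the latter were on a different slide from all others.

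Lysosomes are acidic organelles in which hydrolases break down proteins, glycolipids and glycans. The V-ATPase pumps protons into them, and membrane proteins such as LAMP1 and LAMP2 line them. In macroautophagy, the ULK1 kinase complex and the Beclin 1 lipid kinase complex start a double membrane, WIPI proteins bind its phosphoinositides, and ATG5 and ATG7 serve the conjugation of LC3 and GABARAP proteins to lipid. Receptors such as p62, encoded by Sqstm1, tie cargo to that membrane, which then fuses with a lysosome. Many of these genes are known targets of the TFEB family of transcription factors, which bind promoter elements built around CACGTG.

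RNA was measured on 10 one-colour arrays. The lines Ts6, Ts8, Ts11 and Ts15 each carry 3 copies of the autosome in their name and have the strain label 129 S7/SvEvBrd, and the control (WT) is the diploid male line AB1. Cells were taken at passages 9 and 18 for Ts6, 10 and 13 for Ts8, 8 and 11 for Ts11, 11 and 14 for Ts15, and 18 and 20 for WT. Each line has 2 biological replicates at different passages, and whether they came from separate thaws or clones is not stated, so p-values measure the spread between these arrays only. The labels give neither the parent nor the sex of the trisomic lines, so line of origin and trisomy cannot be told apart. Passage was lower in the trisomic lines than in WT except for the Ts6 culture at passage 18, and was tried as a covariate. All cultures grew on irradiated SNL76/7 feeder cells, which were depleted by settling before RNA extraction.

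Between 71.4% and 80.2% of the noncontrol spots were well above background on an array, and replicates correlated at 0.992 to 0.996 across genes. WT, Ts6, Ts8 and Ts11 shared slide 1 and both Ts15 arrays were on slide 2, so every Ts15 difference is also a difference of slide. The 10 ES cell markers examined, among them Pou5f1, Nanog and Sox2, were well above background on all 10 arrays. All 30 members were also well above background on all 10 arrays. Levels below are log2 signals relative to the 75th percentile of the array, and differences are log2 differences of group means. Groups are said to differ where limma's adjusted p over all 28192 genes was under 0.05.

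Of the 30 members, 2 lie on chromosome 6 (Atg7, Gabarapl1), 5 on chromosome 8 (Lamp1, Mcoln1, Atp6v0d1, Map1lc3b, Gabarapl2), 4 on chromosome 11 (Sqstm1, Gabarap, Becn1, Wipi1) and 0 on chromosome 15. The other 19 lie on chromosomes that none of the 4 lines is named for. Among them Gla and Lamp2 lie on the X chromosome, whose copy number in the trisomic lines is not known because their sex is not given. The probes of Becn1 and Sqstm1 are shown because they are the chromosome 11 members that passed the test. They are given 5′ to 3′ from the array files, with positions on mm9, and the Becn1 probe crosses an exon junction, so its 60 bases span 943 bases of the genome.
Becn1, chr11:101151771-101152713, minus strand: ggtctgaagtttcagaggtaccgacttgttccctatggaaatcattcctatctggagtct
Sqstm1, chr11:50015985-50016044, minus strand: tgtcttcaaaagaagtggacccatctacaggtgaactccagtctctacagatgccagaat

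The promoters of 4 of the 5 chromosome 8 members are shown. Map1lc3b, Mcoln1 and Atp6v0d1 had the largest differences in Ts8 among the 5. Lamp1 had the smallest (0.22) and held the most copies of CACGTG. The promoter of Gabarapl2, which held none, is not shown. The sequences come from RefSeq on GRCm38.p6, cover 250 bases before the annotated start and 50 from it, and have each CACGTG in capitals.
Lamp1, chr8:13158911-13159210, plus strand: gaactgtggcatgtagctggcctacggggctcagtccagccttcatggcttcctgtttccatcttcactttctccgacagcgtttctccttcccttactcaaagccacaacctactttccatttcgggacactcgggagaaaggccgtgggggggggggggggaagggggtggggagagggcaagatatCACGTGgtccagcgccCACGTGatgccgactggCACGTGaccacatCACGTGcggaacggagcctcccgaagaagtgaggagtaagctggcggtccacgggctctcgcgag
Mcoln1, chr8:3500269-3500568, plus strand: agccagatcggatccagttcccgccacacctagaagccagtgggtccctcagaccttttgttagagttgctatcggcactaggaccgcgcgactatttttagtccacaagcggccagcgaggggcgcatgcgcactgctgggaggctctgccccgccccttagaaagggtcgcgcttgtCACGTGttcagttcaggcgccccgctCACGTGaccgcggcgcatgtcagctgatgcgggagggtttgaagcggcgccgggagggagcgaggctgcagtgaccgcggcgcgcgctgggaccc
Atp6v0d1, chr8:105566015-105566314, minus strand: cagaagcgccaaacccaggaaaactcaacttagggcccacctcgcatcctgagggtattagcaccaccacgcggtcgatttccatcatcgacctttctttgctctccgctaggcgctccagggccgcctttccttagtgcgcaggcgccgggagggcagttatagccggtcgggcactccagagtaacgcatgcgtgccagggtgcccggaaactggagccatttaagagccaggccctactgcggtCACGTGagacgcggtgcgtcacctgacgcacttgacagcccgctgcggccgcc
Map1lc3b, chr8:121590188-121590487, plus strand: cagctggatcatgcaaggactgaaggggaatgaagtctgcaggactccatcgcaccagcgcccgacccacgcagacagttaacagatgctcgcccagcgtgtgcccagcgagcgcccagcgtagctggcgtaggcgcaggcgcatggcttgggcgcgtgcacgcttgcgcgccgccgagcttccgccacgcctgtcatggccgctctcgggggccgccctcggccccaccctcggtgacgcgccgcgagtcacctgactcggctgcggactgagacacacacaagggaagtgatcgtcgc

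A promoter entry was found for 25 of the 30 members, and Atp6v1h, Becn1, Ctsb, Map1lc3a and Npc1 had none. CACGTG, which reads the same on both strands, occurred in 10 of the 25 members (40.0%), against 8.09% of 27018 genes with an entry and 10.4% of the 14222 tested genes with one. The longer TCACGTGA, whose matches all contain CACGTG, occurred in 5 of 25 (20%), against 1.13% of all genes with an entry. A still longer palindrome, with a G before TCACGTGA and a C after it, was also searched for. It occurred in 0 of the 25 members, against 0.37% of all genes with an entry. Lamp1 held 4 copies of CACGTG, the first base of each lying 61, 45, 28 and 15 bases upstream of the start. Mcoln1 held 2, at 71 and 45 bases upstream, and Atp6v0d1 held 1, at 3 bases upstream. Ctsa, Ctsd and Gla held 2 each and Atg5, Atg7, Ctsl and Glb1 held 1 each. The windows of Map1lc3b, Gabarapl2, Gabarapl1, Sqstm1, Gabarap and Wipi1, which all lie on a chromosome trisomic in some line, held none.

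**Figure D1:**
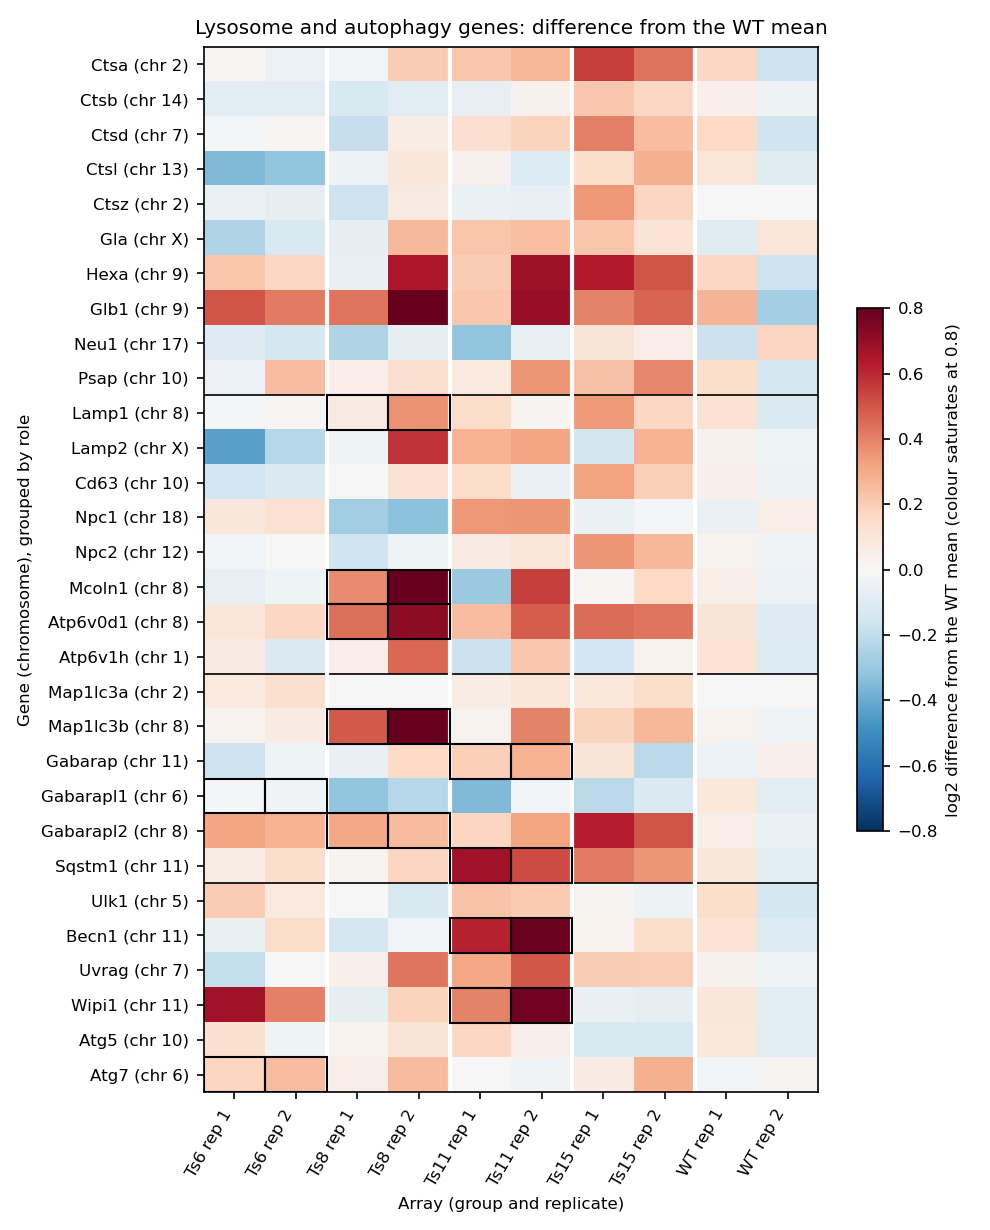
Difference of each of the 30 members (rows, grouped by role, chromosome in brackets) from the WT mean on each of the 10 arrays (columns), as a log2 colour scale that saturates at 0.8 in either direction. Black outlines mark a gene on the chromosome that is trisomic in that line. The outlined cells of Map1lc3b, Mcoln1 and Atp6v0d1 in Ts8 and of Becn1, Sqstm1 and Wipi1 in Ts11 are the reddest of their rows on average, and the hydrolases at the top are red in both Ts15 arrays.

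Ts11 was compared with WT to ask what 3 copies of chromosome 11 do to the members on it. In Ts11 both arrays lay above both WT arrays for all 4 chromosome 11 members, as for 26.8% of all tested genes, a share over all chromosomes. Of the tested chromosome 11 genes, 69.7% differed from WT in the positive direction in Ts11, as did all 4 members. Becn1 and Sqstm1 passed the test, a count of 2, against 13.2% of all tested chromosome 11 genes called higher in this line.

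Becn1 encodes Beclin 1, the regulatory subunit around which the autophagy lipid kinase complexes assemble. Its level was 0.15 and 0.32 in Ts11, against -0.36 and -0.58 in WT. The levels in the other lines were -0.52 and -0.32 in Ts6, -0.60 and -0.49 in Ts8, and -0.44 and -0.33 in Ts15. Both Ts11 arrays thus stood above all 8 other arrays. The difference of 0.70 from WT is a 1.62-fold change (adjusted p = 0.022).

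Sqstm1 encodes p62, the receptor that binds ubiquitinated cargo and LC3 and is itself degraded by autophagy. Its level was 3.19 and 3.04 in Ts11, against 2.61 and 2.43 in WT. Ts15 came next with 2.94 and 2.87, and Ts6 (2.58 and 2.66) and Ts8 (2.54 and 2.69) overlapped WT. The Ts11 difference from WT was 1.51-fold (adjusted p = 0.025), and the Ts15 difference of 0.38 ± 0.12 did not pass (adjusted p = 0.094). A second, dimmer Sqstm1 probe differed from WT by 0.23 in Ts11 and by -0.38 in Ts15, so the direction in Ts15 depends on the probe. With the mean of both probes the Ts11 difference was 0.41 and did not pass (adjusted p = 0.185).

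Both calls rest on few arrays. The Becn1 call was lost without WT replicate 2 (adjusted p = 0.097), Ts11 replicate 1 (adjusted p = 0.051) or Ts11 replicate 2 (adjusted p = 0.0995), with differences between 0.59 and 0.79. That of Sqstm1 was lost without the same arrays (adjusted p = 0.107, 0.101 and 0.060), with differences between 0.51 and 0.67. With passage as a covariate (adjusted p = 0.137 for Becn1 and 0.235 for Sqstm1) or with only the Ts11 and WT arrays in the fit (0.112 and 0.129), neither call was made.

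Wipi1 encodes a phosphoinositide-binding protein of early autophagosome formation. It read 1.39 and 1.76 in Ts11, against 1.08 and 0.90 in WT, a difference of 0.58 ± 0.17 (adjusted p = 0.076). In Ts6, which has the normal 2 copies of chromosome 11, it read 1.66 and 1.40, a difference of 0.54 ± 0.17 (adjusted p = 0.091). Ts8 (0.92 and 1.17) and Ts15 (0.93 and 0.92) overlapped WT. The Ts6 and Ts11 arrays overlapped one another and lay above those of the other 3 groups. Of its 2 dimmer probes, 1 differed by 0.58 and the other by 0.04 in Ts6, while in Ts11 they differed by 0.50 and 0.56.

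Gabarap encodes a ubiquitin-like protein that is joined to autophagosome membranes. It read 3.37 and 3.46 in Ts11, against 3.14 and 3.23 in WT, a difference of 0.23 ± 0.14 that did not pass (adjusted p = 0.341). The levels were 3.02 and 3.15 in Ts6, 3.13 and 3.34 in Ts8, and 3.29 and 2.97 in Ts15, ranges that each overlapped that of WT. Its second brightest probe differed by 0.42 in Ts11 and its dimmest by -0.21. The sequence of the dimmest probe lies wholly before the annotated RefSeq start of the gene, so it does not read the transcript from that start.

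**Figure D2:**
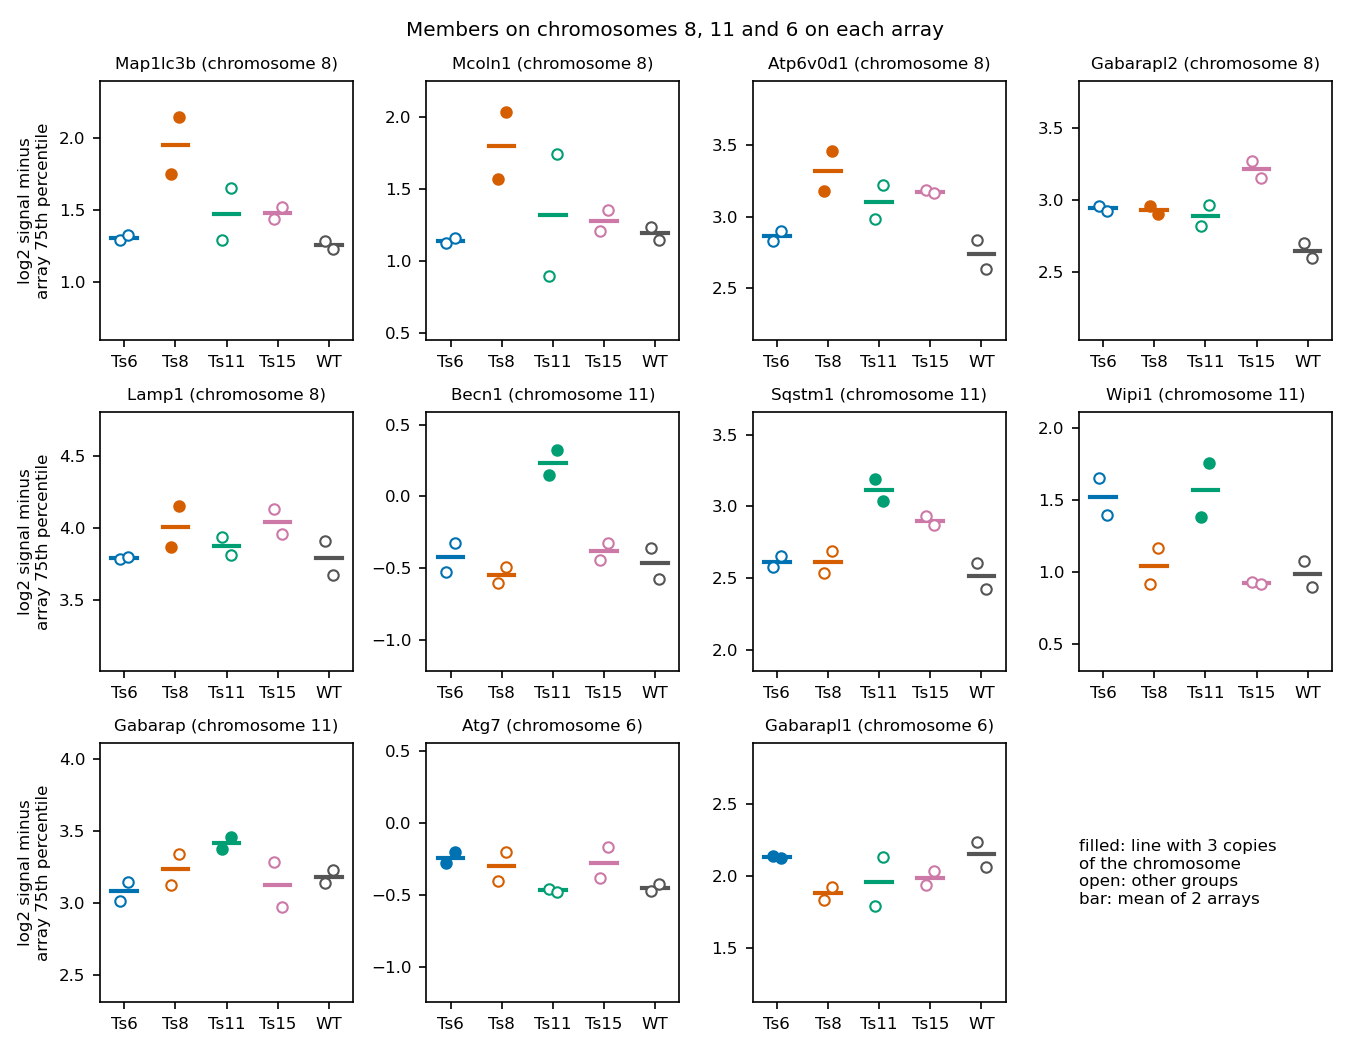
Log2 signal minus the array's 75th percentile of the 11 members on chromosomes 8, 11 and 6, each in Ts6, Ts8, Ts11, Ts15 and WT. Points are single arrays, filled in the line with 3 copies of the gene's chromosome, and bars are means of 2 arrays. Each panel spans the same range of log2 units. Becn1 in Ts11 and Map1lc3b in Ts8 stand above every other group, while Gabarapl2 and Lamp1 are highest in Ts15.

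Ts8 was compared with WT in the same way. None of the 5 chromosome 8 members passed the test, against 9.61% of all tested chromosome 8 genes called higher. All 5 differed in the positive direction, as did 77.1% of the tested chromosome 8 genes. For 4 of the 5, both Ts8 arrays lay above both WT arrays, as for 31.1% of all tested genes, a share over all chromosomes. For 3 of the 5 members the difference was between 0.58 and 0.69, and replicate 2 was the higher Ts8 array for each of these 3.

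Map1lc3b encodes LC3B, the protein used as a marker of autophagosome membranes. Its level was 1.75 and 2.15 in Ts8, against 1.29 and 1.23 in WT. It read 1.29 and 1.32 in Ts6, 1.29 and 1.65 in Ts11, and 1.44 and 1.52 in Ts15, so both Ts8 arrays stood above all others. The difference of 0.69 ± 0.17 is 1.61-fold and fell short of the threshold against WT (adjusted p = 0.064). Against the mean of the other 3 trisomic lines it was 0.53 ± 0.14 and passed (adjusted p = 0.043), where 28.7% of chromosome 8 genes were called higher. This call was kept under 10 of 18 alternatives.

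Mcoln1 encodes mucolipin 1, the lysosomal calcium release channel. It read 1.57 and 2.04 in Ts8, against 1.24 and 1.15 in WT, a difference of 0.61 ± 0.27 (adjusted p = 0.208). Ts6 (1.13 and 1.16) and Ts15 (1.21 and 1.35) lay near WT. The 2 Ts11 arrays lay far apart, at 0.90 and 1.75, below and above all WT arrays.

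Atp6v0d1 encodes a subunit of the membrane sector of the V-ATPase. It read 3.18 and 3.46 in Ts8, against 2.84 and 2.64 in WT, a difference of 0.58 ± 0.14 (adjusted p = 0.065). Levels were also above both WT arrays in Ts11 (2.98 and 3.22) and Ts15 (3.18 and 3.16), with differences of 0.36 and 0.44 that did not pass (adjusted p = 0.158 and 0.107). In Ts6 it read 2.83 and 2.90, which overlapped WT.

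The remaining chromosome 8 members stood highest in Ts15 and not in Ts8. Gabarapl2, another GABARAP family gene, read 3.27 and 3.15 in Ts15, against 2.70 and 2.60 in WT, and this difference of 0.57 ± 0.11 was the only one among the members to pass in Ts15 (1.48-fold, adjusted p = 0.022). It read 2.96 and 2.90 in Ts8, 2.96 and 2.93 in Ts6, and 2.82 and 2.96 in Ts11, so all 8 trisomic arrays lay above both WT arrays, with differences of 0.24 to 0.30 in these 3 lines that did not pass. All 8 arrays also lay above WT for Map1lc3b, by a narrow margin in Ts6 and Ts11, and for 4.73% of all tested genes. The Gabarapl2 call in Ts15 was lost without WT replicate 1 or 2 or Ts15 replicate 1 or 2 (adjusted p = 0.052, 0.10, 0.118 and 0.067), and with passage as a covariate (0.140) or only the Ts15 and WT arrays in the fit (0.086).

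Lamp1 encodes one of the most abundant lysosomal membrane proteins. It read 3.87 and 4.15 in Ts8 and 4.13 and 3.96 in Ts15, against 3.91 and 3.68 in WT. Ts6 (3.78 and 3.80) and Ts11 (3.94 and 3.81) were closer to WT. Ts8 replicate 1 lay between the 2 WT arrays, and the differences of 0.22 ± 0.14 in Ts8 and 0.25 ± 0.14 in Ts15 did not pass (adjusted p = 0.372 and 0.315).

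Ts6 carries 2 members on its extra chromosome, and neither passed the test, against 14.3% of tested chromosome 6 genes called higher in that line. Atg7, which encodes the E1-like enzyme of LC3 conjugation, read -0.28 and -0.20 in Ts6, against -0.47 and -0.42 in WT, a difference of 0.21 ± 0.12 (adjusted p = 0.332). Its levels in Ts8 (-0.40 and -0.20) and Ts15 (-0.38 and -0.17) overlapped those of Ts6, and Ts11 (-0.45 and -0.47) lay at WT. Gabarapl1, a GABARAP family gene, read 2.14 and 2.12 in Ts6, against 2.24 and 2.06 in WT, a difference of -0.02. It was lower than WT on average in all 4 lines, with no difference that passed. The Ts8 arrays read 1.84 and 1.92, those of Ts11 1.79 and 2.13, and those of Ts15 1.94 and 2.03. It was the only member whose highest group mean was WT.

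Map1lc3a, the fifth LC3 and GABARAP gene, lies on chromosome 2. Ts6 read 1.44 and 1.49, Ts8 1.37 and 1.37, Ts11 1.42 and 1.46, and Ts15 1.45 and 1.51, against 1.37 and 1.36 in WT. Its differences from WT were between 0.00 and 0.11, and none passed the test.

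**Figure D3:**
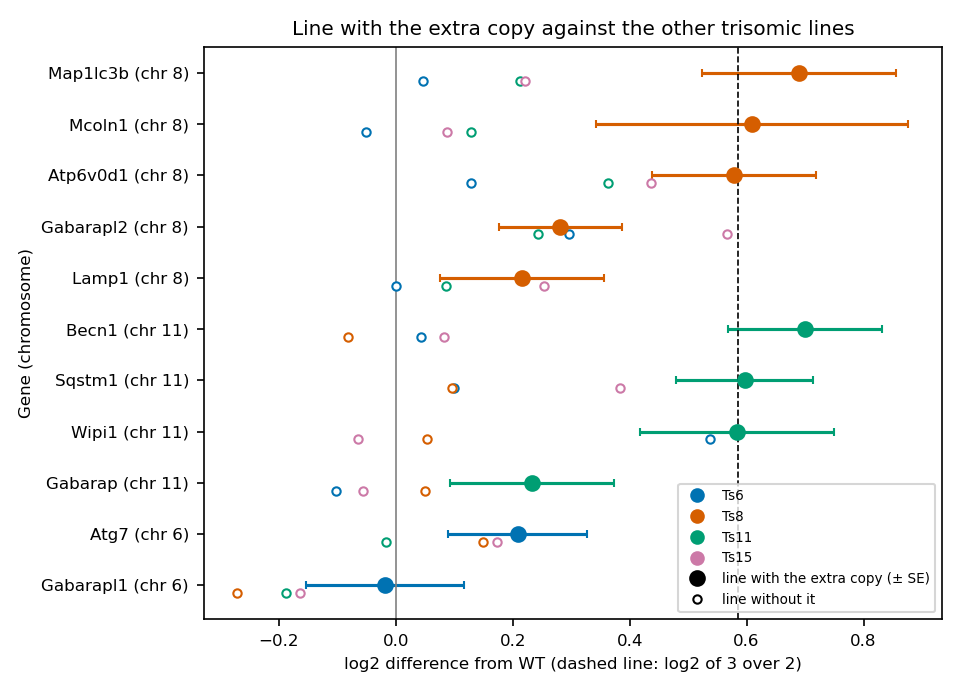
Log2 difference from WT of the 11 members on chromosomes 8, 11 and 6, in the line with the extra copy (large filled points, bars ± SE, 2 arrays against 2) and in the other 3 trisomic lines (small open points). The dashed line is log2 of 3 over 2. In their own line 6 members lie near the dashed line, Wipi1 is nearly as high in Ts6, and Gabarapl2 and Lamp1 are exceeded by Ts15.

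Set together, 10 of the 11 members on these chromosomes had a higher mean in the line with their extra copy than in WT, as had 70.5% of the 4950 tested genes of the 3 chromosomes. Their median difference there was 0.58, beside log2 of 3 over 2, which is 0.58. In the 3 lines without their extra copy, the median of the same 11 genes was 0.09. The median of the 5 chromosome 8 members in Ts8 was 0.58, beside 0.26 for all 1498 tested chromosome 8 genes. That of the 4 chromosome 11 members in Ts11 was 0.59, beside 0.18 for 1996 genes, and that of the 2 chromosome 6 members in Ts6 was 0.10, beside 0.15 for 1456 genes. In all, 8 of the 11 members (72.7%) had their highest group mean in their own line, as did 48.3% of those 4950 genes.

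Members on chromosomes that were not trisomic in the line were compared with WT to see whether the rest of the module moved. Their median difference was 0.00 for the 28 such members of Ts6, 0.05 for the 25 of Ts8, 0.14 for the 26 of Ts11 and 0.20 for the 30 of Ts15. The medians of all tested genes on such chromosomes were -0.02 for Ts6, 0.03 for Ts8, -0.01 for Ts11 and -0.01 for Ts15. In Ts6, 0 of the 30 members were called (9.04% of all tested genes, and 3 members at an unadjusted p under 0.05). Ts8 also had 0 (3.53% of genes, and 5 members unadjusted). Ts11 had 2 (8.13% of genes, and 6 members unadjusted) and Ts15 had 1 (7.43% of genes, and 5 members unadjusted). No member was called for the mean of the 4 lines against WT (3.85% of genes were called, and 4 members had an unadjusted p under 0.05). All 4 comparisons share the 2 WT arrays.

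Counting arrays instead, both Ts15 arrays lay above both WT arrays for 19 of 30 members, against 27.2% of all genes, and below for 2, against 30%. For Ts11 the counts were 16 above (26.8% of genes) and 1 below (26.9%). They were 7 above and 6 below in Ts6 (27.1% and 30.4% of genes), and 7 above and 4 below in Ts8 (31.1% and 24.5%). Of the 30 members, 13 had their highest group mean in Ts15 (43.3%, against 22.0% of all genes), 10 in Ts11, 5 in Ts8, 1 in Ts6 and 1 in WT. The shares of all genes include genes that were dim on some arrays, which no member was. They were not matched to the members for signal level.

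**Figure D4:**
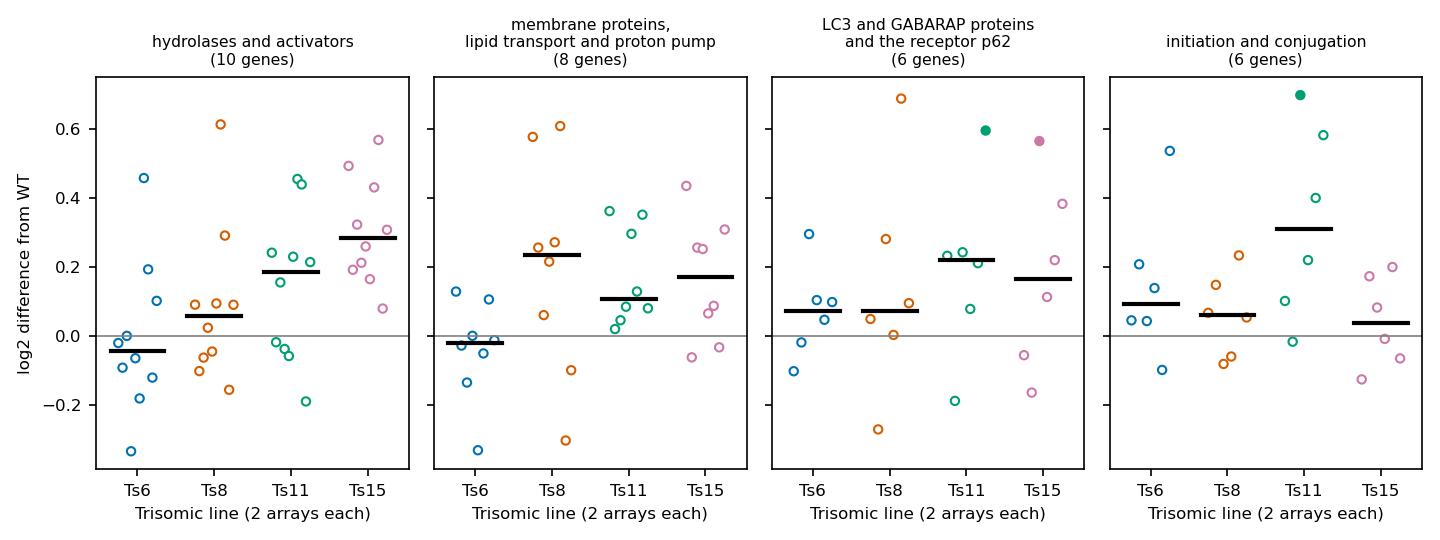
Log2 difference from WT of the members of each role (points, filled where the test passed, in alphabetical order within a line) in Ts6, Ts8, Ts11 and Ts15, with the median as a black bar. All 10 hydrolase points of Ts15 lie above 0, and the 3 filled points are Sqstm1 and Becn1 in Ts11 and Gabarapl2 in Ts15.

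The hydrolase group holds the proteases Ctsa, Ctsb, Ctsd, Ctsl and Ctsz, the glycosidases Gla, Hexa, Glb1 and Neu1, and Psap, the precursor of the saposin activators. None of the 10 was called against WT in any line. In Ts15 all 10 differed in the positive direction, as did 48.3% of genes on other chromosomes than 15, and 9 had both arrays above both WT arrays, as had 27.2% of all genes. Their median difference was 0.28. The largest was Hexa, the alpha subunit of beta-hexosaminidase, with 2.79 and 2.66 in Ts15, against 2.32 and 1.99 in WT, a difference of 0.57 ± 0.25 (adjusted p = 0.215). Ctsa, the carboxypeptidase that protects beta-galactosidase and neuraminidase, read 3.71 and 3.59 in Ts15, against 3.32 and 3.00 in WT (0.49 ± 0.14, adjusted p = 0.076). Its dimmer probe went the other way, by -0.15. The other 6 apart from Glb1 and Ctsl (Ctsb, Ctsd, Ctsz, Gla, Neu1 and Psap) differed from WT by -0.19 to 0.32 across the 4 lines. Median differences of the group were -0.04 in Ts6, 0.06 in Ts8 and 0.19 in Ts11. The Ts15 pattern was weaker among the 39 other lysosomal enzymes and activators tested. Of these, 26 differed from WT in the positive direction in that line, and their median difference was 0.05.

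Glb1, the lysosomal beta-galactosidase, had a mean above that of WT in every line. Ts6 read 0.68 and 0.59, Ts8 0.60 and 0.98, Ts11 0.39 and 0.87, and Ts15 0.57 and 0.64, against 0.45 and -0.10 in WT. Its differences of 0.43 to 0.61 did not pass in any line, and the 2 WT arrays lay further apart than the pair of any line. Across the 4 lines, 9 of 30 members had a mean above WT in every line (30.0%, against 16.7% of all genes): Lamp1, Atp6v0d1, Gabarapl2, Sqstm1, Hexa, Psap, Map1lc3a, Map1lc3b and Glb1.

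Ctsl, the cathepsin L protease, read 3.46 and 3.50 in Ts6, against line means of 3.78 to 4.03 in the other 3 lines. That difference of -0.40 ± 0.10 passed (adjusted p = 0.034), where 13.3% of genes were called and 6.65% were called lower, and was kept under 9 of 18 alternatives. Against WT the Ts6 difference was -0.33 and did not pass (adjusted p = 0.128).

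The membrane and transport group holds Lamp1, Lamp2, Cd63, Npc1, Npc2, Mcoln1, Atp6v0d1 and Atp6v1h. Its members off chromosome 8 included the 2 cholesterol exporters of the lysosome. Npc1, the membrane transporter, read 0.56 and 0.56 in Ts11 and -0.07 and -0.12 in Ts8, against 0.15 and 0.26 in WT. Ts6 (0.30 and 0.33) and Ts15 (0.15 and 0.20) lay at or just above WT. Neither the Ts11 difference from WT of 0.35 ± 0.09 nor the Ts8 difference of -0.30 ± 0.09 passed (adjusted p = 0.064 and 0.109). Each passed against the mean of the other 3 lines, at 0.43 ± 0.08 in Ts11 and -0.45 ± 0.08 in Ts8 (adjusted p = 0.020 and 0.013). In these comparisons 7.53% of genes were called in Ts11, 3.87% higher, and 12.9% in Ts8, 4.75% lower. The Npc1 call was kept under 14 of 18 alternatives in Ts11 and 17 of 18 in Ts8. Npc2, the soluble partner that hands cholesterol to NPC1, read 3.28 and 3.19 in Ts15, against 2.95 and 2.90 in WT (0.31 ± 0.10, adjusted p = 0.102), and passed against the other lines (0.32 ± 0.08, adjusted p = 0.030), where 19.2% of genes were called and 7.09% were higher. The Npc2 call was kept under 9 of 18 alternatives.

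Lamp2, the partner of Lamp1 that also serves chaperone-mediated autophagy, read 0.72 and 0.92 in Ts6, against 1.19 and 1.12 in WT (-0.33 ± 0.22, adjusted p = 0.401). Its 2 probes were matched to different transcripts and had opposite signs in Ts8 (0.27 and -0.14) and Ts11 (0.30 and -0.08), but both were negative in Ts6 (-0.33 and -0.52). The tetraspanin Cd63 and the V-ATPase subunit Atp6v1h differed from WT by -0.13 to 0.26 and by -0.06 to 0.26 across the lines, and none of these differences passed. Among the 8 members with several probes, the brightest probe and another had opposite signs for 3 in Ts6, for 5 in Ts8, for 5 in Ts11 and for 4 in Ts15. In Ts11, Gabarap was counted only through its probe that lies before the annotated start.

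Of the initiation and conjugation genes off the trisomic chromosomes, Ulk1, the kinase that starts autophagy, differed from WT by -0.06 to 0.22 across the lines. Uvrag, a partner of Beclin 1 in endosome and autophagosome traffic, read 2.17 and 2.36 in Ts11, against 1.90 and 1.83 in WT (0.40 ± 0.15, adjusted p = 0.151). Atg5, which is joined to ATG12 in the LC3 conjugation enzyme, differed by -0.13 to 0.10. None of the 3 passed in any line.

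In Ts15, the line with no member on its extra chromosome, markers of another cell type were called higher on the same arrays. Of 17 primitive and visceral endoderm markers, all tested, 11 were called higher in Ts15 and 0 lower, against 2.58% of genes called higher. They included Sox17 (2.48), Foxa2 (1.95), Gata6 (1.51) and Gata4 (1.37), transcription factors of endoderm, and Cubn (1.47) and Amn (1.40), the endocytic receptor pair of the visceral endoderm. Their summed signal was 58.3 to 70.2 times the 75th percentile in Ts15, against 33.2 to 35.5 in WT, and 26.7 to 31.8 in the other 3 lines. The summed signal of 21 feeder fibroblast markers was 72.8 to 79.8 in Ts15 with 1 called higher (Acta2), against 67.3 to 67.6 in WT, and 52.4 to 68.8 in the other lines. Of 8 tested trophoblast markers, 1 was called higher in Ts15 (Hand1), with summed signals of 11.5 to 13.2, against 8.46 to 10.8 in WT. None of the 10 ES cell markers was called in Ts15, where they summed to 153 to 174, against 161 to 170 in WT. The part of these cells in the Ts15 values of the lysosome and autophagy genes was not tested, and in RNA from whole cultures a change in the number of cells of a type and a change in RNA per cell cannot be told apart.

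**Figure D5:**
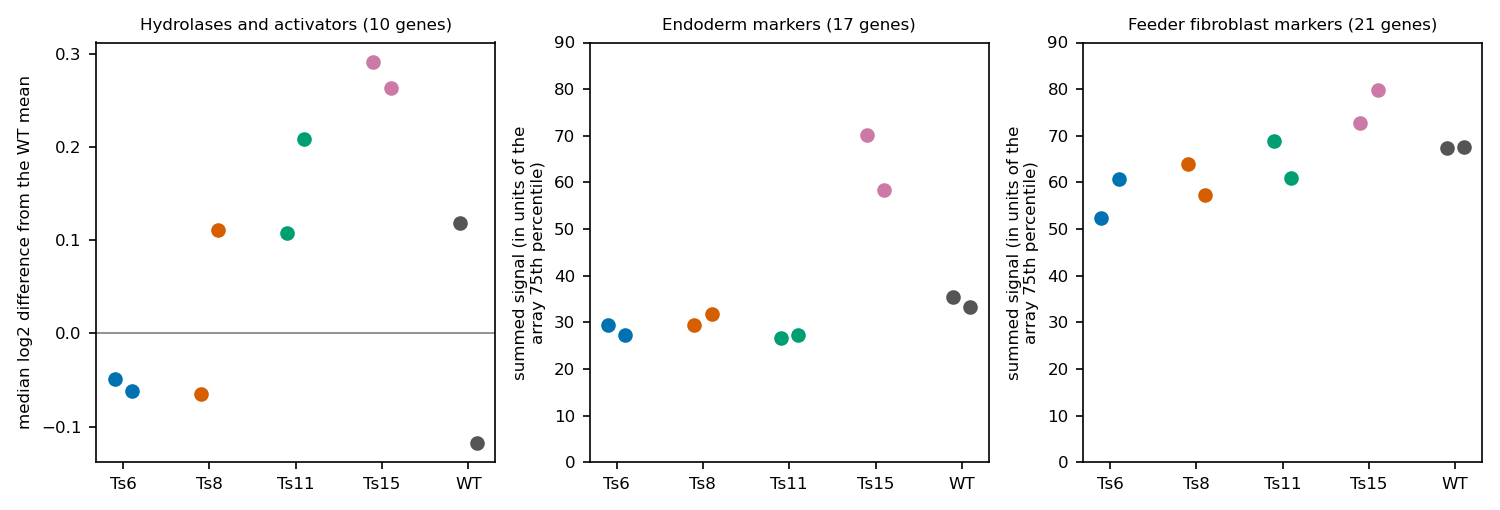
Left, the median log2 difference from the WT mean of the 10 hydrolase and activator genes on each array. Middle and right, the summed signal of 17 endoderm markers and 21 feeder fibroblast markers on each array, in units of the array's 75th percentile. Points are single arrays in Ts6, Ts8, Ts11, Ts15 and WT, and the Ts15 arrays are the highest in all 3 panels.

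In Ts11, where the member median was also above that of all genes, the endoderm markers summed to 26.7 to 27.4, below WT, and the feeder markers to 60.9 to 68.8. No endoderm or feeder marker was called in Ts11 against WT. Against the mean of the other 3 lines, which includes Ts15, 9 of the 17 endoderm markers were called lower in Ts11. In that comparison 7.53% of all genes were called in either direction, and 3.87% of all genes were called higher. The part of these cell types in the Ts11 values of the members was not tested.

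The other genes of the pathway were read from 7 lists, with 173 genes tested: lysosomal enzymes and activators (39 tested), lysosomal membrane and sorting proteins (28), V-ATPase subunits (20), core autophagy genes (31), autophagy receptors (15), fusion with lysosomes (16) and TFEB and mTORC1 control (24). In Ts6, 10 of the 173 were called higher and 4 lower, beside 4.44% and 4.6% of all genes. Ts8 had 1 higher and 3 lower (2.07% and 1.45% of genes), Ts11 11 higher and 4 lower (4.03% and 4.1%), and Ts15 7 higher and 1 lower (2.58% and 4.86%). Of the genes called higher, 3 of 10 lay on the trisomic chromosome in Ts6, 0 of 1 in Ts8, 6 of 11 in Ts11 and 3 of 7 in Ts15. Of all tested genes called higher, the share there was 16.6% for Ts6, 24.7% for Ts8, 23.2% for Ts11 and 15.2% for Ts15. The median over the 173 was 0.01 for Ts6, -0.01 for Ts8, 0.07 for Ts11 and 0.05 for Ts15.

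Among the enzymes, 3 of 39 were called higher in Ts6, 4 in Ts11 and 4 in Ts15, and 0 were called lower in any line. The shares of all tested genes called higher were 4.44% (Ts6), 4.03% (Ts11) and 2.58% (Ts15). Most of the 39 were lower than WT in 2 lines, with 14 positive for Ts6 (median -0.14) and 16 for Ts8 (median -0.06). For Ts11, 21 were positive (median 0.06), and for Ts15, 26 were (median 0.05). Ctss, the cathepsin S protease, was called higher in Ts6, Ts11 and Ts15. It was dim and entered the test through these 3 lines, at -4.62 and -4.63 in Ts6, -5.37 and -4.83 in Ts11 and -5.19 and -5.15 in Ts15, against -6.41 and -6.78 in WT. In WT and in Ts8 only 1 of the 2 arrays was well above background, so the size of the difference is not well measured. Arsg, a sulfatase of chromosome 11, was called higher in Ts11 by 1.99, at -1.23 and -0.23, against -2.08 and -3.34 in WT. It was not called in the lines with 2 copies, although their arrays also lay above both WT arrays, at -1.02 and -1.07 in Ts6, -1.52 and -0.79 in Ts8, and -1.62 and -1.80 in Ts15. In Ts15, Ctsh, the cathepsin H protease, read 0.33 and 0.34, against -0.89 and -1.61 in WT, a difference of 1.59 ± 0.33 (adjusted p = 0.032). Aga, a glycoprotein-degrading enzyme, was higher in Ts6 by 0.61.

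Among membrane and sorting genes, Mcoln3, a relative of Mcoln1, was lower in both Ts6 and Ts11. It read -1.21 and -1.24 in Ts6 and -0.71 and -0.69 in Ts11, against 0.94 and 0.99 in WT, differences of -2.19 and -1.67. Sort1, a sorting receptor for lysosomal proteins, was higher in Ts6 (0.67), Ts8 (0.92) and Ts11 (0.90). It was not called in Ts15, whose arrays (-0.70 and -1.02) also lay above both WT arrays (-1.30 and -1.44). Gnptab, a subunit of the enzyme that tags hydrolases with mannose 6-phosphate, was lower in Ts6 (-0.49) and Ts11 (-0.51). It was not called in Ts8 (-0.57 and -0.61) or Ts15 (-0.77 and -0.57), whose arrays also lay below both WT arrays (-0.31 and -0.36). Cd68, a lysosomal glycoprotein of chromosome 11, was lower in Ts6 (-0.38) and Ts8 (-0.75). On chromosome 11, Ctns, the cystine exporter, was higher in Ts11 by 0.61. In the V-ATPase list 1 of 20 was called, Atp6v0a4 of chromosome 6, higher in Ts6 by 0.83.

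In the core autophagy list, Atg10, the E2-like enzyme that joins ATG12 to ATG5, was higher in Ts6 (1.50) and Ts11 (1.38). It read -2.0 and -2.28 in Ts6 and -2.40 and -2.12 in Ts11, against -3.58 and -3.69 in WT. It was not called in Ts8 (-3.35 and -2.92) or Ts15 (-3.09 and -3.26), whose arrays also lay above both WT arrays. Atg4b, the protease that processes LC3 proteins, was higher in Ts6 (0.65), Wdr45b of chromosome 11 in Ts11 (0.61) and Atg101 of chromosome 15 in Ts15 (0.50). The receptors called were Tax1bp1 of chromosome 6 in Ts6 (0.55), Calcoco1 of chromosome 15 in Ts15 (0.61) and Tex264, an ER-phagy receptor, lower in Ts8 (-0.59). Of the fusion genes, Stx17, the autophagosome SNARE, was higher in Ts6 (0.66), as were Arl8b of chromosome 6 in Ts6 (0.59) and Vamp7 in Ts11 (0.62), while Vps11 was lower in Ts6 (-0.46) and Tecpr1 in Ts8 (-0.45). The arrays of the other lines also lay above both WT arrays for Arl8b and below both for Tecpr1, without a call.

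Of the 24 regulators, 2 were called higher and 1 lower in Ts11, 1 higher and 1 lower in Ts15, and 0 in Ts6 and Ts8. Tfec, a member of the TFEB family, read -4.77 and -4.85 in Ts11 and -1.25 and -1.74 in Ts15, against -3.34 and -3.49 in WT. It was called lower in Ts11 (-1.39) and higher in Ts15 (1.92). Mitf, another member of that family, read -0.95 and -0.82 in Ts15, against -0.36 and 0.05 in WT (-0.73 ± 0.15, adjusted p = 0.030). Foxo3, a transcription factor that acts on autophagy genes, was higher in Ts11 by 0.81, and Fnip1, a folliculin partner encoded on chromosome 11, by 1.03. For both genes the arrays of the other lines also lay above both WT arrays, without a call. The 10 members with a CACGTG in the promoter window had a median difference of 0.00 in Ts6. It was 0.12 for Ts8, 0.14 for Ts11 and 0.23 for Ts15. For the 15 members without it the medians were -0.01 for Ts6, 0.06 for Ts8, 0.22 for Ts11 and 0.22 for Ts15.

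Across the 5 groups together, the F test called 5 members, Npc1, Becn1, Sqstm1, Gabarapl2 and Wipi1 (adjusted p = 0.016 to 0.042), where it called 28.7% of all genes.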

How the data were processed

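Intensity values of 10 one-colour Agilent arrays were deposited as scanner output. Per the file headers, Feature Extraction 10.7.3.1 made them, with detrending (spatial, multiplicative) and surrogates switched on and no background subtraction. The deposited series table held log2 values that followed the scanner signal (correlation at least 0.998), with column medians of -3.41 to -3.31. Its scale is log2 and its direction that of the signal, while its centring is not recorded, so it served as an alternative. One file, that of Ts15 replicate 2, held values in 3 significant digits.

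Log2 processed signals were centred on the 75th percentile of each array, and spots of a probe were averaged. Of 55681 probes, 176 with a flagged value were left out, and 43055 passed a filter that asks for signal well above background on both arrays of a group. The brightest probe stood for each gene, named through RefSeq accessions (26762 of 28390 matched). limma 3.58.1 in R 4.3.3 fitted 1 mean per group over all 10 arrays, with Benjamini-Hochberg adjustment within each comparison, two-sided. The script was tested on simulated data. Figures used Python 3.11.15 and matplotlib 3.10.9.

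The members, lists and tests were chosen with earlier results of these data known. Named were all members, and per list and line at most the 2 highest and 2 lowest called genes. Cd68 in Ts6 and the endoderm markers were named after their values were seen. Alternatives covered background correction, normalization, scaling, filter, probe choice, series table, arrays in the fit, slide, passage, replicate block and leaving out each array. Sequences are from the array files and RefSeq (GRCm38.p6). The number of arrays limits the precision.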

Additional observations from a re-analysis of the deposited data

Results flagged for a closer look

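Each trisomic line was set against the mean of the other 3, a comparison without the WT arrays, and members whose line differed from the others by this test are listed here. Ctsl was lower in Ts6 (-0.40 ± 0.10, adjusted p = 0.034), where 13.3% of all genes were called. In Ts8, Map1lc3b was higher (0.53 ± 0.14, adjusted p = 0.043) and Npc1 lower (-0.45 ± 0.08, adjusted p = 0.013), where 12.9% were called. Becn1 (0.68 ± 0.11, adjusted p = 0.013), Npc1 (0.43 ± 0.08, adjusted p = 0.020) and Sqstm1 (0.40 ± 0.10, adjusted p = 0.046) were higher in Ts11, where 7.53% were called. Npc2 was higher in Ts15 (0.32 ± 0.08, adjusted p = 0.030), where 19.2% were called and the difference is also one of slide. Each of these differences kept its sign under all 18 alternatives, but leaving out single arrays ended calls. The Ctsl call was lost without either Ts6 array, Ts8 replicate 2, Ts11 replicate 1 or either Ts15 array (adjusted p = 0.051 to 0.240). That of Map1lc3b was lost without either Ts6 array, Ts8 replicate 2, Ts11 replicate 1 or either Ts15 array (adjusted p = 0.061 to 0.332), and its difference was 0.33 without Ts8 replicate 2. That of Npc1 was lost in Ts8 without Ts8 replicate 2 (adjusted p = 0.109), and in Ts11 without Ts6 replicate 1, either Ts11 array or Ts15 replicate 1 (highest adjusted p = 0.101). That of Becn1 was lost without Ts11 replicate 2 (adjusted p = 0.087), that of Sqstm1 without any one of the 8 trisomic arrays (adjusted p = 0.052 to 0.230), and that of Npc2 without either array of Ts6, Ts11 or Ts15 (highest adjusted p = 0.180). Npc2 was also not called with normexp, quantile normalization or the series table, where its difference was 0.26, 0.21 and 0.19. Map1lc3b, Becn1 and Sqstm1 lie on the chromosome that is trisomic in the line, and Ctsl, Npc1 and Npc2 do not.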

How the results depend on the processing

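With 2 arrays per group, the counts of members called were small and moved with the processing, and the cause was not tested. Against WT, Ts11 (2 members) had 4 with the series table, 1 with the mean of all probes, and 0 with only the compared arrays or with passage as a covariate. Ts15 (1) had 0 with only the compared arrays or with passage. Ts8 (0) had 2 with normexp or with only probes above background on all arrays. Against the other lines, Ts6 (1) had 2 with normexp and 0 with no filter, quantile normalization or passage, Ts8 (2) had 1 with no filter or only the compared arrays, and Ts15 (1) had 2 with scaling on bright probes or only the compared arrays, 3 with normexp or the mean of all probes and 7 with only probes above background on all arrays. The F test (5) had 3 with the mean of all probes and 2 with no filter, slide 1 only or passage. The median of members on other chromosomes in Ts15 (0.20) was 0.18 with normexp or the mean of all probes, 0.16 with bright-probe scaling, 0.15 with the series table and 0.13 with quantile normalization. In Ts11 (0.14) it was 0.25 with the series table and 0.094 with the mean of all probes, in Ts8 (0.054) it was 0.088 with the series table, and that of the chromosome 11 members (0.59) was 0.48 with the mean of all probes. In Ts6 (0.00) it was 0.031 with quantile normalization, 0.019 with the series table and -0.019 with bright-probe scaling, a change of sign, as without WT replicate 2 (-0.049) or Ts6 replicate 2 (-0.012).

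Leaving out each array in turn gave 0 to 0 calls in Ts6, 0 to 2 in Ts8, 0 to 2 in Ts11, 0 to 0 in Ts15 and 0 to 0 for the mean of the lines. Against the other lines it gave 0 to 4 in Ts6, 0 to 3 in Ts8, 0 to 2 in Ts11 and 0 to 2 in Ts15, and 1 to 4 for the F test. Medians on the trisomic chromosome were 0.063 to 0.13 in Ts6, 0.38 to 0.72 in Ts8 and 0.50 to 0.68 in Ts11. On other chromosomes they were -0.049 to 0.095 in Ts6, -0.043 to 0.12 in Ts8, 0.075 to 0.21 in Ts11 and 0.16 to 0.23 in Ts15. Becn1, Sqstm1 and Gabarapl2 kept their direction under each of these alternatives, and Becn1 kept its call under 10 of 15 (adjusted p 0.014 to 0.137), Sqstm1 under 9 of 15 (0.013 to 0.235) and Gabarapl2 under 8 of 14 (0.018 to 0.140). The main fit did not pair arrays by replicate number. Across genes, the difference of replicate 2 from replicate 1 correlated between groups at -0.10 to 0.39. The highest values were 0.39 for Ts8 with Ts11 and 0.21 for Ts6 with Ts15, so these groups shared part of the difference between replicates. The source of that shared part was not tested. With the replicate block 2 members were called in Ts11, 1 in Ts15, 0 in Ts6 and Ts8, and 5 by the F test. Against the other lines the Ts11 count (3) was 2 with that block, as with no filter, the mean of all probes, only the compared arrays or passage, and Sqstm1 was the member lost (adjusted p = 0.055 with the block).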
